A study of Mus musculus with 20 samples.

Results

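Gene expression was examined for the integrated stress response and the unfolded protein response, a set of 42 genes out of 78258 gene identifiers in a count table of mouse lumbar dorsal root ganglia (DRG, which house the cell bodies of sensory neurons). The members were taken by gene symbol from a list drawn up with earlier results of these data known. They fall into 28 genes of the ATF4 arm, which serves amino acid supply and its feedback, 4 kinases that act on the initiation factor eIF2 alpha, and 10 genes of the XBP1 and ATF6 arm of the endoplasmic reticulum (ER), here called the ER arm. All 42 symbols were found, and all 42 passed the filter on low counts.

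The series asks how the aryl hydrocarbon receptor (AhR, gene Ahr) bears on the response of DRG neurons to nerve injury. Ahr cKO mice carried Ahr fl/fl alleles with a Thy1CRE-ERT2/EYFP transgene, a tamoxifen-inducible Cre recombinase with a fluorescent reporter under the Thy1 promoter, so that cells in which this transgene is silent keep Ahr. Control mice were Ahr f/f or f/+ with no transgene named (their sample titles call them wildtype, their library names carry ff), and both genotypes were male and received 100 mg/kg tamoxifen daily on 5 days from 17 weeks of age. At 4 weeks after tamoxifen the sciatic nerve was transected on 1 side, and 1 day later the lumbar DRG of the ipsilateral and the contralateral side of each mouse were taken, which gave 4 groups of 5 libraries (control contralateral, control ipsilateral, cKO contralateral and cKO ipsilateral). The contralateral ganglia thus also came from injured mice, and ganglia of uninjured mice were not analysed here. One label field names a spinal cord injury; the protocol, which describes the sciatic nerve lesion, was followed.

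As background, cells that lack amino acids, accumulate unfolded protein in the ER, sense double-stranded RNA or lack haem activate kinases that phosphorylate eIF2 alpha; most translation falls, while translation of the ATF4 messenger rises, and ATF4 with its C/EBP partners raises genes of amino acid synthesis, transport and tRNA charging. Unfolded protein also activates IRE1, which splices the Xbp1 messenger, and ATF6, which is cleaved to a transcription factor; both raise ER chaperones and degradation factors. In injured sensory neurons these pathways are studied for their part in local and somatic protein synthesis during regrowth. Counts of RNA per gene measure neither ATF4 protein, eIF2 alpha phosphorylation, ATF6 cleavage nor the spliced share of Xbp1.

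Libraries held 76.2 to 118.5 M counts (M, mega), and levels are given as normalised CPM (a gene's count as a share of its library, scaled to a common total). The labels name no molecular identifiers, and each mouse was a separate animal. The tissue label held in every library: 10 sensory neuron markers summed to 8907 to 10636 CPM, with no marker at 0. The injury label held as well, since 5 of 5 injury genes (Atf3, Sprr1a, Sox11, Jun and Gal) were higher ipsilaterally in both genotypes. Of these, Jun was lower in cKO than in control contralateral ganglia (89.2 ± 3.67 against 103 ± 4.05 CPM, log2 -0.21 ± 0.0362, adjusted p 0.0278), the side that serves as baseline of the injury comparisons, and 3 of 5 had an unadjusted p under 0.05 there. Ahr itself, measured in whole ganglia over all its exons, had 21.3, 24.6, 23.8, 27.2 and 24.4 CPM in control contralateral and 20.4, 21, 20.5, 20.4 and 19.5 CPM in cKO contralateral libraries, a log2 difference of -0.25 ± 0.0661 (SE) that did not pass (edgeR adjusted p 0.103), although the 2 groups did not overlap. Ipsilaterally it had 34.1, 35.5, 30.2, 38.1 and 34.1 CPM in control and 31.5, 36.8, 31.5, 30.9 and 28.9 CPM in cKO libraries, where the genotypes overlapped (log2 difference -0.11 ± 0.0655, adjusted p 1), and it rose after injury in both genotypes (log2 fold changes 0.50 and 0.65). The deepest library, cKO ipsilateral of mouse H64, stood at the edge of its group for several members, and values without this mouse are given where they change a call. In whole ganglia, fewer cells of a type and less RNA per cell cannot be told apart.

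Stretches of the RefSeq promoter windows (GRCm38.p6, 250 bases before to 50 bases after a gene's start, both strands searched) are shown for members whose window holds a sequence element known for these pathways, because the results below set such members side by side. The CARE, a composite element known to bind ATF4 with C/EBP factors, was searched as TGATGNAA, and capitals mark its match, on either strand, in the first 3 sequences, printed 5′ to 3′ on the gene's strand.
Asns (chr6:7693210-7693252, minus strand): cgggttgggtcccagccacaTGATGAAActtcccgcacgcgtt
Chac1 (chr2:119351029-119351076, plus strand): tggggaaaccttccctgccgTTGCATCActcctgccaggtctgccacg
Slc7a11 (chr3:50443633-50443699, minus strand): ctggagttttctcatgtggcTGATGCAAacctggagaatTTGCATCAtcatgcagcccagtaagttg

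The ER stress element (ERSE), known to bind ATF6 with NF-Y and also XBP1, was searched as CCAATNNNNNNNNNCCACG, and ERSE-II as ATTGGNCCACG. Capitals mark the ERSE in Hspa5, Calr and Hsp90b1, and in Herpud1 they mark first a CARE and then the ERSE-II, which do not overlap.
Hspa5 (chr2:34772005-34772063, plus strand): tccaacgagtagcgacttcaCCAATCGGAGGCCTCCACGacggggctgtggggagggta
Calr (chr8:84847055-84847113, minus strand): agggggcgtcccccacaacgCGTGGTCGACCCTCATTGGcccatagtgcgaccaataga
Hsp90b1 (chr10:86705513-86705676, minus strand): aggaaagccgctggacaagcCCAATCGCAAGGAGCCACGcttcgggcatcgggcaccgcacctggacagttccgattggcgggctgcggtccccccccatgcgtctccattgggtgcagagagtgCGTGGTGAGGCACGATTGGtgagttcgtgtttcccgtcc
Herpud1 (chr8:94386297-94386407, plus strand): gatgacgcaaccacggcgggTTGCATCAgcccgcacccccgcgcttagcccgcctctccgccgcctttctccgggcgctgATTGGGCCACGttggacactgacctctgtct

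The CARE was found for 7 of 25 ATF4-arm members with a RefSeq window (Asns, Chac1, Nupr1, Pycr1, Slc7a11, Trib3 and Vldlr), against 3.969% of all 32851 windows. In Slc7a11 it occurred 2 times. An ERSE was found for 3 of 9 ER-arm members (Hspa5, Calr and Hsp90b1, the last with 2 matches), against 0.119% of all windows, and for 0 of 25 ATF4-arm members. ERSE-II, in 0.037% of all windows, was found for Herpud1 alone among the 42 members, which also held the only CARE of the ER arm. The XBP1 element searched as TGACGTGG was in 0.676% of all windows and in that of 0 members. It and both ERSE forms share the letters CCACG on 1 strand. Aldh1l2, Slc7a3, Slc7a5 and Atf6 had no entry. The 25 ATF4-arm members held 29 windows and the 9 ER-arm members held 9, while the percentages count single windows. The elements were searched because they are known for these pathways, so matches in these members are no independent support for their grouping. A match is a description of letters, not of a bound site.

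One day after transection, the ATF4 arm was higher on the injured side in both genotypes. In control mice 21 of 28 members rose and 0 fell, with a median log2 fold change over the 28 of 0.41. In cKO mice 19 of 28 rose and 0 fell, with a median of 0.42. Over all 28564 tested genes, 13.8% rose and 16.0% fell in control mice (median log2 fold change -0.00), and 16.2% rose and 15.1% fell in cKO mice (median -0.03). Each call is an adjusted p under 0.05 in edgeR's quasi-likelihood test with Benjamini-Hochberg adjustment over all tested genes. The ER arm had 8 of 10 members higher in control and 6 of 10 in cKO mice, with smaller medians of 0.27 and 0.25, and 3 of 4 kinases rose in each genotype with medians of 0.14 and 0.20. All 28 members called in cKO mice were also called in control mice, in the same direction, and the 4 called in control mice alone were Calr, Pdia4, Slc38a2 and Stc2. These calls do not pair the 2 libraries of a mouse. With the mouse as a replicate block, Calr, Pdia4 and Slc38a2 also passed in cKO mice (edgeR adjusted p 0.0135, 0.0170 and 0.0187). With that block, Ddit4 of the ATF4 arm was called lower in both genotypes.

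**Figure D1:**
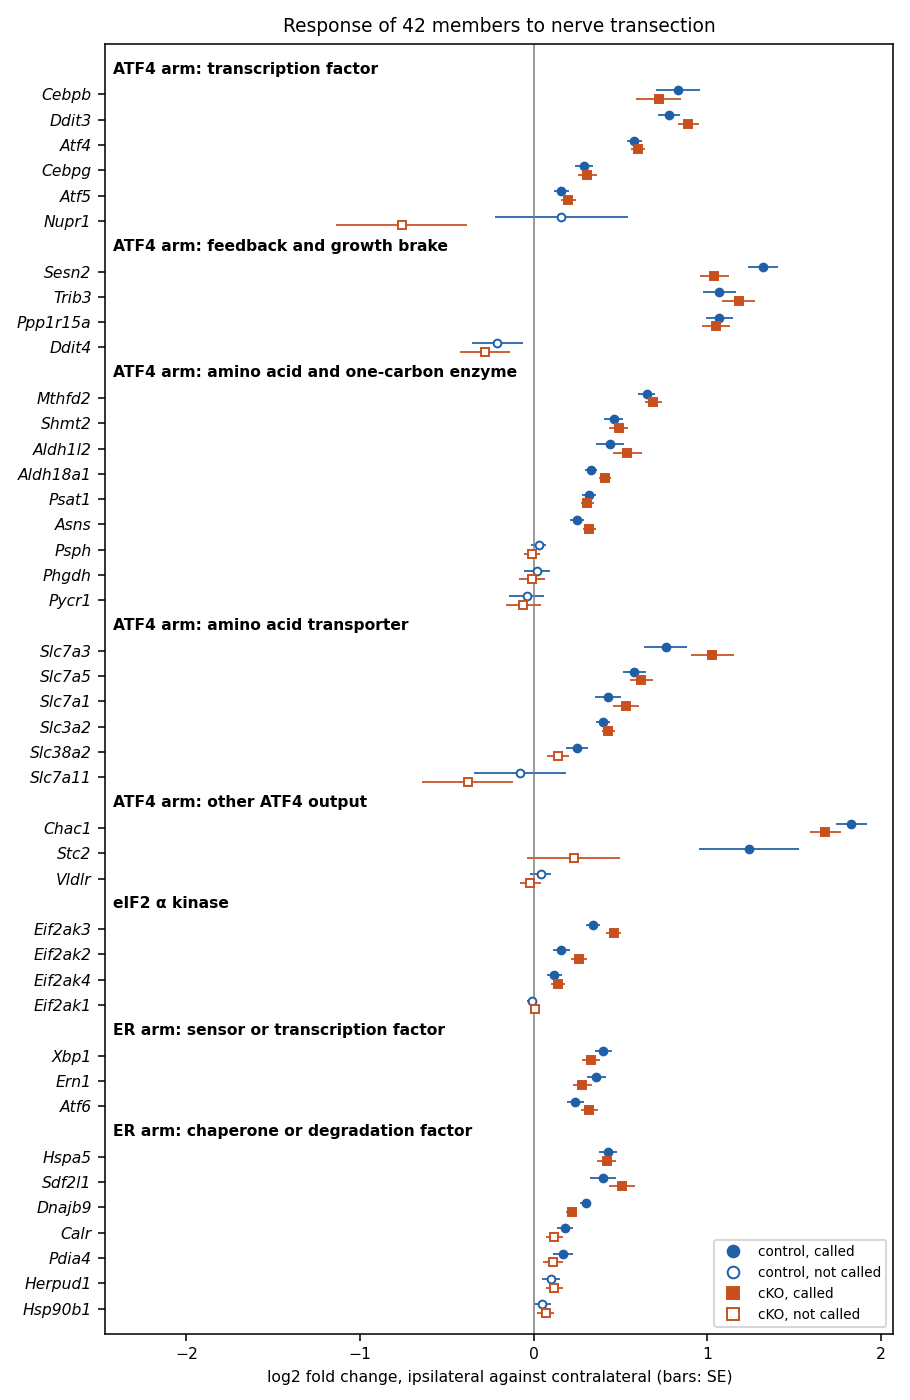
Log2 fold change of each of the 42 members, ipsilateral against contralateral, in control (blue circles) and cKO mice (orange squares), with bars for the SE of the edgeR fit. Filled symbols are called at an adjusted p under 0.05: 32 members in control and 28 in cKO mice, all to the right of 0.

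Among the transcription factors 5 of 6 rose in each genotype. Atf4, the central factor, had 150.0, 130.1, 133, 137 and 133 CPM in the control contralateral libraries of mice H62, H63, H65, H96 and H97, and 202, 202, 211, 204 and 200 CPM in their ipsilateral libraries. In the cKO mice H61, H64, H95, H99 and H100 it had 143, 132, 130.4, 125 and 127 CPM contralaterally and 209, 205, 203, 191 and 186 CPM ipsilaterally; the same order of mice is kept for every list of values below. The sides did not overlap in either genotype, and the 5 ipsilateral control libraries were close to each other. The log2 fold change was 0.58 ± 0.0422 (SE; adjusted p 1.136e-09) in control and 0.60 ± 0.0422 (adjusted p 5.616e-10) in cKO mice, or 1.49-fold and 1.51-fold.

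Ddit3, which encodes CHOP, a factor tied to prolonged ER stress and cell death, stood per kilobase of exon at 12.4 CPM in control contralateral ganglia, against 57.9 for Atf4. It had 22.4, 21.3, 20.7, 22.2 and 20 CPM contralaterally and 34.0, 35.0, 35.9, 41.7 and 36.3 CPM ipsilaterally in control mice. The cKO libraries had 21.2, 21, 20.5, 19.8 and 19.4 CPM and 33.8, 43.6, 38.3, 36.9 and 35.6 CPM. Every ipsilateral library was above every contralateral library of its genotype, with log2 fold changes of 0.78 ± 0.0611 (adjusted p 3.592e-09) and 0.89 ± 0.0612 (adjusted p 3.890e-10). A second, short gene model with the same symbol had log2 fold changes of 0.88 and 0.95. All 105 of its exon bases lie within those of the first model on the same strand, so it is not a separate observation.

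Atf5, a relative of ATF4 that is also under translational control, moved least of the factors that were called. It had 107, 97.7, 95.6, 94.3 and 87.4 CPM contralaterally and 113, 107, 105, 112 and 104 CPM ipsilaterally in control mice, and the sides overlapped. In cKO mice 91.7, 101, 96.2, 90.3 and 91.0 CPM contralaterally stood below 105, 111, 106, 109 and 109.9 CPM ipsilaterally, without overlap. Its log2 fold changes were 0.16 ± 0.0433 (adjusted p 0.00581) and 0.20 ± 0.0433 (adjusted p 0.00106). The C/EBP partners Cebpb and Cebpg rose too, Cebpb by 0.83 and 0.72 and Cebpg by 0.29 and 0.31 on the log2 scale. For Cebpb, 20.7% of the exon bases overlap Tmem189 on the opposite strand; the strand setting of the counting is not given in the sources used here, so its reads are uncertain. Nupr1, a stress-induced cofactor, was not called, and its libraries are given with the genotype comparison.

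Of the feedback genes 3 of 4 rose in each genotype, each with a log2 fold change above 1. Trib3, a pseudokinase that binds and restrains ATF4, had 3.73, 3.99, 3.03, 3.98 and 3.88 CPM contralaterally and 7.50, 8.05, 7.16, 8.61 and 7.72 CPM ipsilaterally in control mice. Its cKO values were 3.29, 3.42, 3.24, 3.27 and 3.41 CPM and 7.23, 9.52, 7.99, 6.46 and 6.52 CPM. The lowest ipsilateral value, 6.46 CPM, was above the highest contralateral value, 3.99 CPM, over both genotypes. Its log2 fold changes were 1.07 ± 0.0937 (adjusted p 1.971e-08) and 1.18 ± 0.0943 (adjusted p 3.689e-09).

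Ppp1r15a encodes GADD34, the regulatory subunit of the phosphatase that removes the phosphate from eIF2 alpha. In control mice it had 38.5, 37.3, 35.0, 41.8 and 36.4 CPM contralaterally and 70.3, 79.7, 76.7, 90.0 and 78.8 CPM ipsilaterally. The cKO libraries had 42.4, 41.5, 39.3, 34.7 and 39.4 CPM and 77.9, 99.8, 80.2, 75.2 and 74.5 CPM, with no overlap of the sides in either genotype. The rise was 2.09-fold in control and 2.07-fold in cKO mice (log2 1.07 ± 0.0787 and 1.05 ± 0.0787; adjusted p 2.645e-09 and 2.734e-09).

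Sesn2, a leucine-binding inhibitor of mTORC1 signalling, rose from 6.80, 6.13, 6.01, 6.03 and 6.57 CPM to 13.7, 15.9, 15.4, 18.4 and 15.5 CPM in control mice. In cKO mice it rose from 6.65, 7.23, 7.47, 6.60 and 8.21 CPM to 14.2, 17.9, 14.5, 12.9 and 15.1 CPM. The sides were apart in both genotypes, with log2 fold changes of 1.32 ± 0.0846 (adjusted p 1.498e-10) and 1.04 ± 0.0841 (adjusted p 4.288e-09). Ddit4 (REDD1), the other mTORC1 inhibitor of the set, had negative values. It had 76.4, 67.8, 77.8, 60.0 and 73.5 CPM contralaterally against 66.6, 58.4, 65, 53.3 and 64.3 CPM ipsilaterally in control mice, and 68.1, 51.3, 79.7, 79.3 and 80.0 against 62.3, 37.3, 64.5, 62.9 and 68.7 CPM in cKO mice. It was lower ipsilaterally in all 10 mice although the groups overlapped, and mice that were low on 1 side, such as H64 and H96, were low on the other. Without pairing, its log2 fold changes of -0.21 ± 0.146 (adjusted p 0.325) and -0.28 ± 0.146 (adjusted p 0.164) did not pass. With the mouse as a replicate block they passed in both genotypes (control -0.21, adjusted p 0.00113; cKO -0.29, adjusted p 7.885e-05). They also passed without mouse H64, which was lowest in both cKO groups (adjusted p 0.0361 and 0.0303).

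Amino acid and one-carbon enzymes split by gene: 6 of 9 rose in each genotype and the other 3 were not called in either. Asns, asparagine synthetase and the textbook ATF4 target, had 159, 165, 167, 154 and 169.7 CPM contralaterally and 198, 189, 198, 198 and 184 CPM ipsilaterally in control mice. Libraries of cKO mice had 155, 149.8, 147, 169 and 148 CPM and 190.2, 201, 186, 191 and 195 CPM. The sides did not overlap, yet the change was small: log2 fold changes of 0.25 ± 0.0381 (adjusted p 3.528e-05) and 0.32 ± 0.0381 (adjusted p 1.080e-06). At 59.6 CPM per kilobase in control contralateral ganglia, Asns was among the most abundant members before any rise, close to Atf4 per length.

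Of the 3 enzymes of serine synthesis, the middle one was called. Phgdh, the first and committed enzyme, had 38.5, 43.9, 39.4, 45.1 and 42.6 CPM contralaterally and 44.0, 42.3, 38.4, 45.2 and 42 CPM ipsilaterally in control mice, with interleaved values and a log2 fold change of 0.02 ± 0.0754 (adjusted p 0.910; cKO -0.01 ± 0.0754, adjusted p 0.916). Psat1, the aminotransferase after it, went from 60.3 ± 1.83 to 75.2 ± 3.61 CPM (mean ± SD, n = 5) in control mice, a log2 fold change of 0.32 ± 0.0396 (adjusted p 2.467e-06), and rose by 0.31 in cKO mice. Psph, the phosphatase of the last step, had log2 fold changes of 0.03 ± 0.0437 and -0.01 ± 0.0437 (adjusted p 0.624 and 0.948); 10.4% of its exon bases overlap Cct6a on the opposite strand.

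The mitochondrial one-carbon enzymes rose together. Mthfd2 had the largest change of the enzymes, from 34.5 ± 1.07 to 54.2 ± 2.89 CPM in control mice (log2 0.65 ± 0.0474, adjusted p 1.039e-09; cKO 0.69 ± 0.0474, adjusted p 3.600e-10). Shmt2, which feeds serine carbon into this pathway, rose by 0.46 and 0.49 on the log2 scale. Aldh1l2, which oxidises formyl-tetrahydrofolate to CO2 in mitochondria, rose by 0.44 and 0.54, with 14.1% of its exon bases shared with D10Wsu102e on the opposite strand. In proline synthesis, Aldh18a1, the first step from glutamate, rose by 0.33 and 0.41. Pycr1, the last step of that route in mitochondria, was not called at about 2.5 CPM in each group (log2 -0.04 ± 0.102 and -0.06 ± 0.102).

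Amino acid transporters rose in 5 of 6 cases in control and 4 of 6 in cKO mice. The cationic amino acid carrier Slc7a3 changed most, from 5.83 ± 0.306 to 9.88 ± 1.16 CPM in control mice and from 5.31 ± 1.02 to 10.8 ± 2.09 CPM in cKO mice (log2 0.76 ± 0.124 and 1.03 ± 0.124; adjusted p 7.222e-05 and 1.886e-06). Its more abundant relative Slc7a1 rose by 0.43 and 0.53. The large neutral amino acid exchanger is built of Slc7a5 and the heavy chain Slc3a2, and both subunits rose: Slc7a5 by 0.58 and 0.62, Slc3a2 by 0.40 and 0.43.

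Slc38a2, a sodium-coupled neutral amino acid carrier, was called in control mice (log2 0.25 ± 0.0655, adjusted p 0.00526) and not in cKO mice (0.14 ± 0.0655, adjusted p 0.102). With the replicate block the cKO change passed too (0.15, adjusted p 0.0187), and the difference between genotypes did not pass (interaction -0.11 ± 0.0926, adjusted p 0.703). Slc7a11, the cystine importer that pairs with the same heavy chain, did not follow its group: log2 fold changes were -0.08 ± 0.264 and -0.38 ± 0.262 (adjusted p 0.858 and 0.308); its window holds 2 CAREs.

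Chac1, which degrades glutathione and is a known ATF4 and CHOP target, had the largest change of all 42 members. It had 7.43, 7.13, 7.39, 7.34 and 6.88 CPM contralaterally and 23.1, 26.5, 25.3, 27.8 and 25.9 CPM ipsilaterally in control mice. In cKO mice the values were 7.22, 7.16, 6.42, 7.19 and 7.65 CPM and 20.8, 29.0, 24.8, 21.1 and 18.7 CPM. The contralateral values of both genotypes lay between 6.42 and 7.65 CPM, and every ipsilateral value was at least 18.7 CPM. The rise was 3.56-fold (log2 1.83 ± 0.0882, adjusted p 1.645e-12) in control and 3.21-fold (1.68 ± 0.0880, adjusted p 4.676e-12) in cKO mice.

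Vldlr, a lipoprotein receptor raised by ATF4 in other tissues, was not called (log2 0.04 ± 0.0603 and -0.02 ± 0.0603). Of the 7 ATF4-arm members with a CARE in the window, Asns, Chac1 and Trib3 rose in both genotypes, and Nupr1, Pycr1, Slc7a11 and Vldlr were called in neither.

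**Figure D2:**
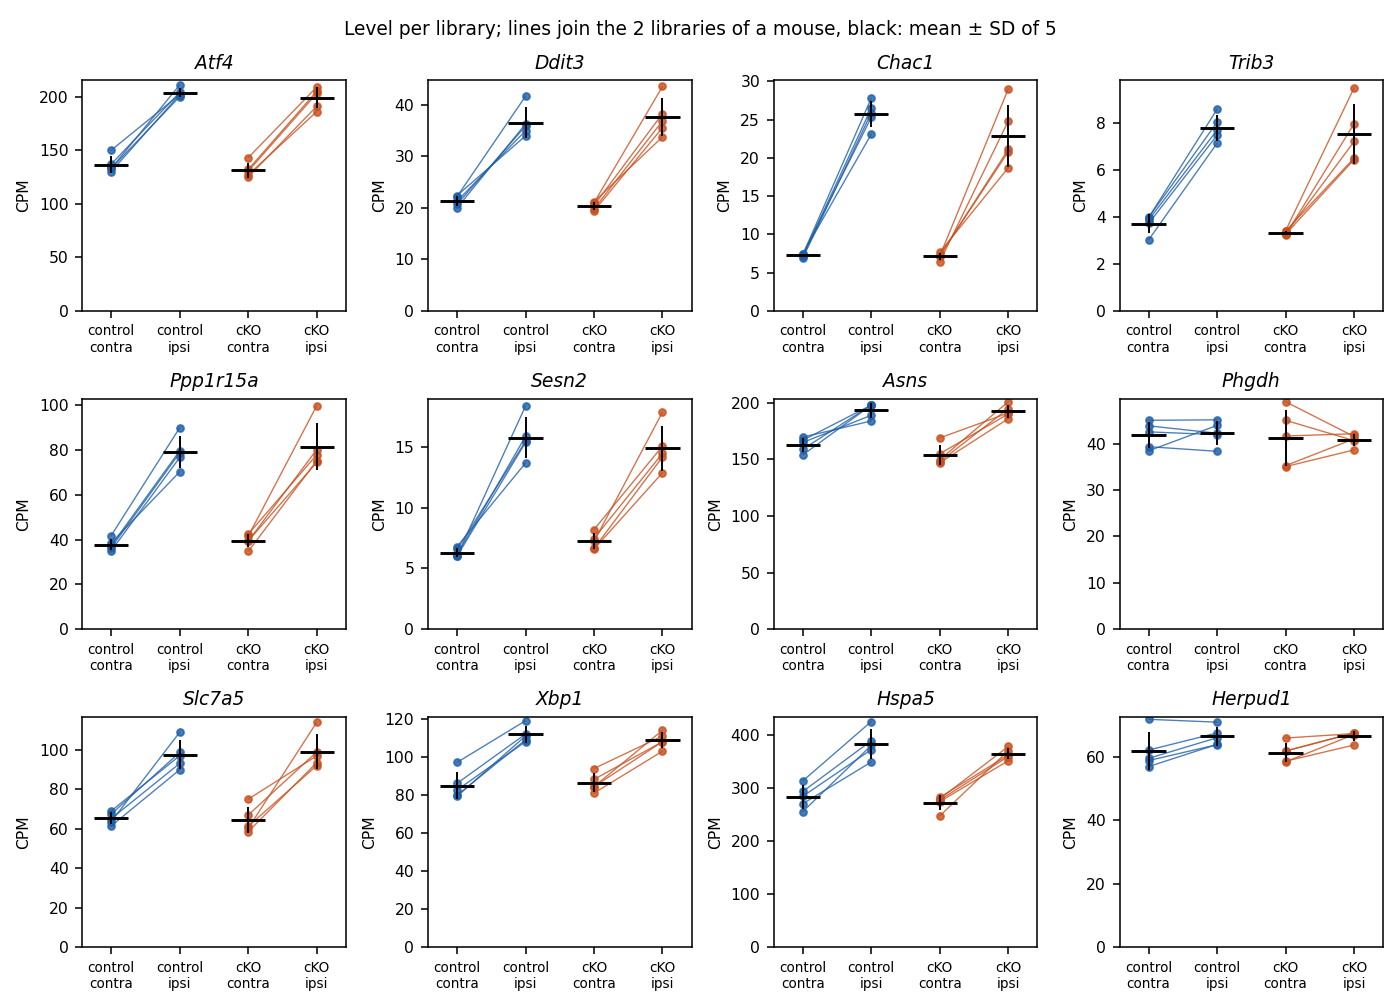
CPM of 12 members in each library, by genotype and side; lines join the contralateral and ipsilateral library of a mouse, and black bars give the mean ± SD of 5 libraries. Chac1, Trib3, Ppp1r15a and Sesn2 separate most by side, Asns and Hspa5 separate by less, and the values of Phgdh and Herpud1 overlap.

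Of the 4 kinases that phosphorylate eIF2 alpha, 3 rose by small amounts. Eif2ak3 (PERK, the kinase of ER stress) had 68.2, 65, 65.7, 65.6 and 67.5 CPM contralaterally and 86.2, 84.0, 86.3, 80.7 and 82.8 CPM ipsilaterally in control mice. For cKO mice the values were 63, 60.2, 56.8, 67.0 and 63.7 CPM and 80.6, 92.5, 89.0, 82.1 and 84.5 CPM. No values overlapped between sides, and the log2 fold changes were 0.34 ± 0.0409 (adjusted p 1.610e-06) and 0.46 ± 0.0409 (adjusted p 1.733e-08).

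Eif2ak2 (PKR, the kinase that senses double-stranded RNA) had 48.9, 46.5, 43.8, 48.1 and 49.0 CPM contralaterally and 55.3, 55.6, 51.8, 50 and 52.1 CPM ipsilaterally in control mice. The cKO values were 48.2, 44.0, 39.7, 43.6 and 47.9 and 51.4, 55.1, 52.9, 55.2 and 53.2 CPM. The sides came within a few CPM of each other without overlapping, with log2 fold changes of 0.16 ± 0.0469 (adjusted p 0.0105) and 0.26 ± 0.0470 (adjusted p 1.884e-04).

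Eif2ak4 (GCN2, the kinase that senses uncharged tRNA) changed least among called members. Its values were 14.0, 13.5, 13.7, 14.2 and 13.5 CPM contralaterally against 14.6, 15, 15.7, 14.4 and 15.2 CPM ipsilaterally in control mice, and 13.1, 13, 12.8, 14.7 and 14.3 against 15.3, 15.4, 14.8, 14.6 and 14.7 CPM in cKO mice. The sides nearly touched in control mice and overlapped in cKO mice. Log2 fold changes were 0.12 ± 0.0408 (adjusted p 0.0298) and 0.14 ± 0.0408 (adjusted p 0.0125). The control call was lost with the replicate block (adjusted p 0.0766), with no filter on low counts (0.0909), by limma on log2(FPKM + 0.1) (0.0943) and without mouse H63, H65 or H97 (0.0682, 0.0813 and 0.0738). The cKO call was lost by limma on log2(FPKM + 0.1) (0.0594) and without mouse H61, H64 or H95 (0.0673, 0.0801 and 0.0556). Eif2ak1 (HRI, the kinase regulated by haem) was not called, with log2 fold changes of -0.01 ± 0.0273 and 0.01 ± 0.0273.

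In the ER arm all 3 sensors or factors rose in both genotypes. Xbp1, the factor downstream of IRE1, had 97.1, 86.1, 82.6, 79.8 and 79.3 CPM contralaterally and 119, 112, 108, 109 and 111 CPM ipsilaterally in control mice. In cKO mice it had 84.4, 84.4, 93.9, 81.0 and 88.2 CPM and 114, 108, 111, 103 and 108 CPM. The sides were apart in both genotypes, and the log2 fold changes were 0.40 ± 0.0495 (adjusted p 2.666e-06) and 0.33 ± 0.0495 (adjusted p 2.148e-05).

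Atf6, the membrane-bound factor, had 71.7, 71.6, 76.1, 70.7 and 78.1 CPM contralaterally and 89.5, 87.9, 81.3, 87.8 and 88.4 CPM ipsilaterally in control mice. The cKO values were 73.3, 68.6, 67.7, 79.1 and 66.1 and 84.9, 98.9, 86.0, 86.7 and 87.2 CPM. Again the sides did not overlap, with log2 fold changes of 0.24 ± 0.0488 (adjusted p 6.709e-04) and 0.32 ± 0.0489 (adjusted p 2.748e-05). Ern1, which encodes IRE1 alpha, rose by 0.36 and 0.28 on the log2 scale.

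The chaperones and degradation factors divided. In control mice 5 of 7 rose, in cKO mice 3 of 7. Hspa5 (BiP), the main ER chaperone and the one that holds the sensors inactive, had 314, 294, 285, 256 and 271 CPM contralaterally and 426, 389.8, 373, 381 and 349.7 CPM ipsilaterally in control mice. In cKO mice it had 275, 248, 283, 278 and 280.2 CPM and 352, 371, 363, 360.0 and 379 CPM. The sides did not overlap, and log2 fold changes were 0.43 ± 0.0529 (adjusted p 1.879e-06) and 0.42 ± 0.0529 (adjusted p 2.662e-06).

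Hsp90b1 (GRP94), the ER member of the HSP90 family, did not move with it. It had 245, 232, 232, 217 and 219 CPM contralaterally and 265, 241, 232, 237 and 211 CPM ipsilaterally in control mice, and the values interleaved. Log2 fold changes were 0.05 ± 0.0485 (adjusted p 0.499) and 0.07 ± 0.0485 (adjusted p 0.311). Of its exon bases, 10.3% overlap a pseudogene on the opposite strand and 2.1% overlap Gm15344 on the same strand. The pseudogene had 295 counts and Gm15344 had 18795 over all libraries, against 419976 for Hsp90b1. Per kilobase of exon in control contralateral ganglia, the levels of Hspa5, Hsp90b1 and Calr were 67.2, 56.8 and 98.4 CPM.

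Dnajb9 (ERdj4), a BiP cochaperone and a known XBP1 target, had 53.6, 52.2, 54.4, 49.5 and 54.1 CPM contralaterally and 64.7, 63.1, 64.7, 67.0 and 64.3 CPM ipsilaterally in control mice. In cKO mice it had 53.7, 56.5, 55.1, 55.2 and 55.8 CPM and 64, 69.0, 62.9, 64.2 and 61.7 CPM. Its libraries were tightly grouped and apart by side, with log2 fold changes of 0.30 ± 0.0313 (adjusted p 3.073e-07) and 0.22 ± 0.0313 (adjusted p 1.305e-05). Sdf2l1, another BiP partner, rose by 0.40 and 0.51.

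Calr (calreticulin, the lectin chaperone) and Pdia4 (a disulfide isomerase) were called in control mice only, with small changes. Pdia4 had 53.7, 50.3, 48.5, 48.2 and 46.1 CPM contralaterally and 63.7, 54.5, 50.8, 55.3 and 52.7 CPM ipsilaterally in control mice, and 45.7, 42.9, 52.2, 47.2 and 49.4 and 48.8, 48.5, 53.0, 52.0 and 54.4 CPM in cKO mice. It was higher ipsilaterally in all 10 mice, while the groups overlapped. Its log2 fold changes were 0.17 ± 0.0588 (adjusted p 0.0376) and 0.11 ± 0.0588 (adjusted p 0.159). The control call was lost without mouse H62, H63, H96 or H97 (adjusted p 0.0530, 0.0519, 0.0890 and 0.0612), and the cKO change passed with the replicate block (0.11, adjusted p 0.0170).

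Calr changed by 0.18 ± 0.0474 (adjusted p 0.00672) in control and 0.12 ± 0.0474 (adjusted p 0.0554) in cKO mice on the log2 scale, and the latter passed with the replicate block (0.12, adjusted p 0.0135). Herpud1, a degradation factor with both a CARE and an ERSE-II in its window, changed by 0.10 ± 0.0501 (adjusted p 0.133) and 0.12 ± 0.0501 (adjusted p 0.0770) and passed in both genotypes with the replicate block (0.11, adjusted p 0.0212; 0.12, adjusted p 0.0111). With that block the ER arm had 9 of 10 members called higher in each genotype, all but Hsp90b1. The share of all tested genes called for injury with that block was not counted. Whether the added calls are particular to the ER arm therefore cannot be told.

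The 2 arms were also compared within each mouse, by the mean over members of the log2 difference between its ipsilateral and contralateral library. In control mice the mean over the ATF4 arm was 0.50 ± 0.108 (SD, n = 5; 0.36 to 0.65), and over the ER arm 0.26 ± 0.0403 (0.22 to 0.33). In cKO mice the means were 0.44 ± 0.0953 (0.33 to 0.59) and 0.25 ± 0.0371 (0.21 to 0.31). The ATF4 arm was above the ER arm in 10 of 10 mice, by 0.11 to 0.33 in control and 0.12 to 0.27 in cKO mice, and the 2 genotypes overlapped for both arms. As the members were chosen with earlier results of these data known, no p is given for these means.

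**Figure D3:**
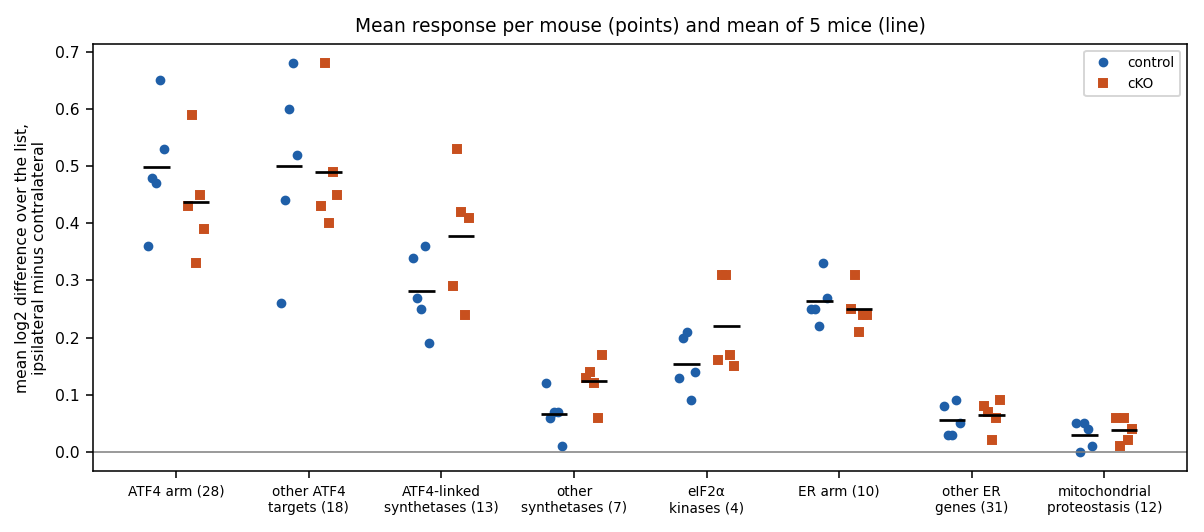
Mean log2 difference between the ipsilateral and contralateral library of each mouse, over the members of 8 gene lists (number of genes in brackets), in control (blue circles) and cKO mice (orange squares); lines are means of 5 mice. The ATF4 arm lies at 0.33 to 0.65 and the ER arm at 0.21 to 0.33, while other ER genes and mitochondrial genes lie near 0.

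Aminoacyl-tRNA synthetases, which charge tRNAs with amino acids, gave a further view of the amino acid branch. Of 13 cytosolic synthetases listed as ATF4-linked, 11 rose in control mice (median log2 fold change 0.21) and 13 in cKO mice (median 0.31). Of 7 other cytosolic synthetase genes, 2 rose in control mice (median 0.03) and 3 in cKO mice (median 0.06). Over all tested genes, 13.8% rose in control and 16.2% in cKO mice. In the linked list Cars1 changed most (0.58 ± 0.0482 and 0.70 ± 0.0483), and the lowest values were 0.06 for Vars1 in control and 0.16 for Mars1 in cKO mice. In the other list Rars1 was highest (0.22 and 0.29). The linked list was above the other in the mean response of 10 of 10 mice, by 0.18 to 0.29 in control and 0.17 to 0.39 in cKO mice. A CARE was found in the windows of 5 of 8 linked synthetases with an entry and of 0 of 5 others. These lists too were drawn up with earlier results known.

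**Figure D4:**
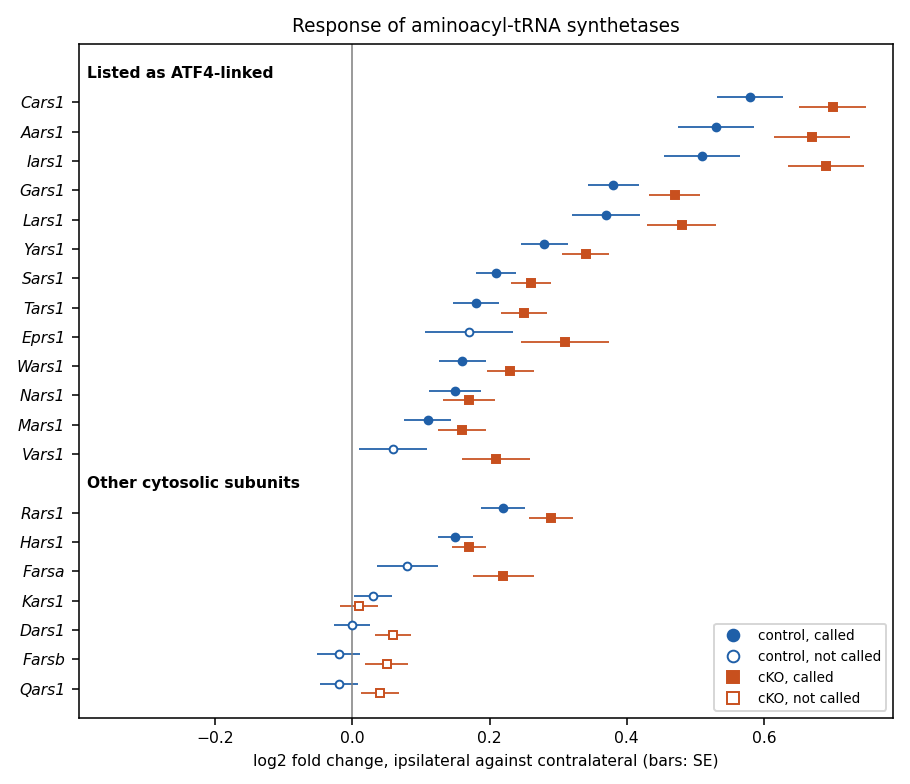
Log2 fold change, ipsilateral against contralateral, of 13 ATF4-linked and 7 other cytosolic aminoacyl-tRNA synthetase genes in control (blue circles) and cKO mice (orange squares), with SE bars; filled symbols are called. Linked synthetases reach 0.70, and 4 of the 7 others are called in neither genotype.

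A broader list of 18 other ATF4 targets had 10 higher and 2 lower in control mice and 9 higher and 2 lower in cKO mice (medians 0.21 and 0.20). Gadd45a, a growth arrest gene with many inducers, was the highest (3.0 ± 0.0612 and 3.08 ± 0.0615), and the lowest were Jdp2 in control (-0.21, called) and Cbs in cKO mice (-0.78, not called). Gdf15, Cth, Fgf21 and Cbs were scarce, with highest group means of 0.323, 0.693, 0.157 and 0.748 CPM. Of these, Gdf15 and Cth were called higher in both genotypes and Fgf21 in cKO mice only. Among 31 other ER stress and ER quality control genes, 4 rose and 3 fell in control mice (median 0.04), and 10 rose and 4 fell in cKO mice (median 0.05). The shares over all tested genes were 13.8% higher and 16.0% lower in control mice, and 16.2% higher and 15.1% lower in cKO mice. Among the 31 genes, the highest values were 0.54 for Sec24d in control and 0.41 for Ero1a in cKO mice, and the lowest was Creb3l1 in both (-0.40 and -0.29). An ERSE was in the windows of 7 of 26 of these genes with an entry.

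Markers of other cell types were measured beside these changes. Ipsilaterally, 3 of 10 sensory neuron markers fell in each genotype. The summed level of 7 plasma cell markers, cells rich in ER chaperones, was 49.5 to 78.9 CPM contralaterally and 93.2 to 133 CPM ipsilaterally in control mice, and 46.0 to 68.0 and 89.2 to 155 CPM in cKO mice, with 2 of 7 called (Sdc1 and Prdm1) and none at 0. Sdc1, which other cells express too, held most of that sum (45.7 ± 4.48 CPM contralaterally and 90.3 ± 5.95 CPM ipsilaterally in control mice, SD, n = 5), while the means of Mzb1 and Tnfrsf17 were below 1 CPM. The immunoglobulin genes Igkc (10.5 ± 5.62 and 13.8 ± 8.94 CPM in control mice) and Jchain (7.78 ± 4.26 and 10.7 ± 6.64 CPM) had positive log2 fold changes in both genotypes (0.39 and 0.49 for Igkc, 0.46 and 0.47 for Jchain) that were not called. In each genotype 5 of the 7 plasma cell markers were positive. These include Derl3 (log2 fold changes 0.16 and 0.02, not called), which is also among the 31 other ER genes. Mzb1 (-0.27 in control and -0.04 in cKO mice) and Tnfrsf17 (-0.91 and -1.05) were negative and not called. Summed macrophage markers were 90.2 to 168 CPM contralaterally and 106 to 204 CPM ipsilaterally in control mice, with 1 of 10 called, and 90.8 to 233 and 137 to 231 CPM in cKO mice, with 0 of 10 called. Of 6 satellite glia markers 2 rose in each genotype, their sum being 1624 to 1785 CPM contralaterally and 1799 to 2041 CPM ipsilaterally in control mice, and 1598 to 1951 and 1724 to 1929 CPM in cKO mice. Of 7 endothelial markers 3 rose in control mice (median log2 fold change 0.40) and 0 were called in cKO mice (median 0.07). Of 7 fibroblast markers, 7 were positive in control mice (median 0.34, 0 called) and 1 in cKO mice (median -0.64), where Dpt fell; in the interaction 0 of 7 were positive (median -0.98, 0 called). Neutrophil markers had medians of 0.58 in control and -0.11 in cKO mice and erythroid markers 0.03 and -0.41, with 0 called. Schwann cell markers had medians of 0.08 (1 of 8 called, higher) and 0.02 (0 called), and lymphocyte markers -0.24 and -0.34 (0 called). The part of these cell types in the members' changes was not tested.

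Between genotypes, 0 of 42 members were called on the contralateral side, on the ipsilateral side or in the interaction, the test of whether the injury response differs between genotypes. Over all 28564 tested genes, edgeR called 0.0735% contralaterally (21 genes), 0.00700% ipsilaterally (2 genes) and 0% (0 genes) in the interaction, where limma on log2 FPKM called 0. DESeq2 called 1041, 3 and 11 genes, and without mouse H99 edgeR called 43 genes in the interaction. At an unadjusted p under 0.05, 8 members passed contralaterally, 0 ipsilaterally and 3 in the interaction, beside 5006, 674 and 2799 of all tested genes. These comparisons share libraries with each other and with the injury comparisons.

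The smallest contralateral p belonged to Stc2, a secreted glycoprotein raised in ER stress, which stayed below 1 CPM. It had 0.338, 0.245, 0.219, 0.174 and 0.0997 CPM in control contralateral and 0.386, 0.596, 0.622, 0.302 and 0.310 CPM in cKO contralateral libraries, with overlapping groups and a log2 difference of 1.04 ± 0.291 (unadjusted p 0.00194, adjusted p 0.112, edgeR). Ipsilaterally it had 0.293, 0.527, 0.490, 0.699 and 0.540 CPM in control and 0.365, 0.695, 0.530, 0.514 and 0.497 CPM in cKO mice. Stc2 was called for injury in control mice (log2 1.24 ± 0.288, adjusted p 0.00225) and not in cKO mice (0.23 ± 0.270, adjusted p 0.564), and its interaction of -1.0 ± 0.395 did not pass (unadjusted p 0.0194, adjusted p 0.485).

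Nupr1 had 13.1, 6.09, 5.58, 4.94 and 6.27 CPM in control contralateral and 8.06, 13.9, 23.6, 5.29 and 26.4 CPM in cKO contralateral libraries. Ipsilaterally it had 7.67, 8.14, 5.80, 8.17 and 10.3 CPM in control and 7.83, 9.44, 8.04, 6.91 and 13.4 CPM in cKO mice. Mice H95 and H100 were highest contralaterally, H61 and H99 were within the control range, and the genotypes overlapped. The contralateral log2 difference was 1.11 ± 0.382 (unadjusted p 0.0103, adjusted p 0.157) and the interaction -0.92 ± 0.537 (adjusted p 0.573). Slc7a11 had a similar spread, with 11.9, 13.3, 24.7, 15.8 and 38.5 CPM in cKO contralateral against 16.9, 13.7, 13.3, 12.2 and 13.4 CPM in control contralateral libraries (adjusted p 0.264).

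Beside these members, the summed level of 7 fibroblast markers was 1010, 2245, 1985, 937 and 1689 CPM in the cKO contralateral and 1359, 1067, 803, 808 and 840 CPM in the control contralateral libraries. All 7 markers had positive log2 differences of cKO against control contralateral ganglia (median 0.85, 0 called) and none was at 0. Differences were also positive, with 0 called, for 8 of 8 neutrophil (median 0.74), 5 of 5 erythroid (0.47), 10 of 10 macrophage (0.28) and 7 of 7 endothelial markers (0.17). They were positive for 4 of 8 Schwann cell (0.00), 3 of 6 satellite glia (-0.01), 2 of 10 sensory neuron (-0.03), 2 of 7 plasma cell (-0.07) and 1 of 8 lymphocyte markers (-0.48), also with 0 called. At an unadjusted p under 0.05 (edgeR), 6 of 7 fibroblast markers passed contralaterally and 4 of 7 in the interaction. Among all 28564 tested genes these counts were 5006 and 2799. Contralaterally 2 of 10 sensory neuron markers passed, and 1 each of the endothelial, satellite glia, plasma cell and lymphocyte markers. None of the neutrophil, erythroid, macrophage or Schwann cell markers did. The part of these cell types in the values of Nupr1, Slc7a11 and Stc2 was not tested.

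**Figure D5:**
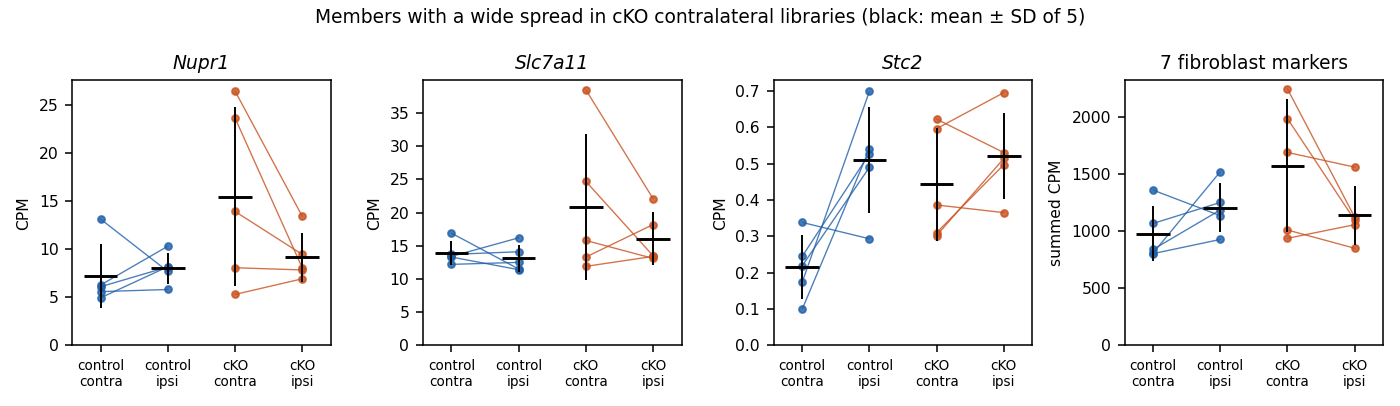
CPM of Nupr1, Slc7a11 and Stc2 and the summed CPM of 7 fibroblast markers in each library, by genotype and side; lines join the libraries of a mouse and black bars give the mean ± SD of 5. The cKO contralateral libraries spread most for Nupr1, Slc7a11 and the fibroblast markers, and the genotypes overlap in every panel.

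Aldh18a1 had 22.2, 24.0, 24.2, 25.8 and 23.7 CPM in cKO contralateral ganglia, against 26.0, 26.4, 26.7, 25.0 and 26.4 CPM in controls (log2 -0.12 ± 0.0365, unadjusted p 0.00353, adjusted p 0.121). Ipsilaterally it had 30.6, 33.1, 31.6, 30.7 and 32.9 against 32.8, 33.4, 33.1, 33.4 and 31.6 CPM, and the groups overlapped on both sides. Sesn2 and Eif2ak3, whose libraries are given above, differed contralaterally by 0.20 ± 0.0844 and -0.10 ± 0.0409 (adjusted p 0.233 and 0.235). Their interactions were -0.28 ± 0.118 and 0.12 ± 0.0577 (unadjusted p 0.0286 and 0.0430; adjusted p 0.498 and 0.505), and that of Dnajb9 was -0.08 ± 0.0443 (adjusted p 0.573). Leaving out cKO mouse H99 brought 4 members past the threshold contralaterally: Asns (-0.12, adjusted p 0.0342), Nupr1 (1.33, 0.0240), Stc2 (1.15, 0.0230) and Aldh18a1 (-0.15, 0.0136); the same step raised the calls over all genes from 21 to 3326.

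On the ipsilateral side the smallest unadjusted p was 0.0607 for Chac1, with a log2 difference of -0.17 ± 0.0846, and every member had an edgeR adjusted p of 1. Calr had 350.5, 326, 318, 322 and 285 CPM in control and 301, 284, 301, 302 and 326 CPM in cKO ipsilateral libraries (log2 -0.08 ± 0.0473), against 300.2, 294, 289, 266 and 269 and 268, 269.8, 287, 283 and 282 CPM contralaterally. Psph had 25.3, 24.2, 25.4, 24.7 and 22.5 and 24.0, 23.5, 23.0, 23.2 and 23.1 CPM ipsilaterally (-0.06 ± 0.0437), against 24.4, 24.3, 24.4, 24.0 and 22.3 and 22.3, 25.0, 25.4, 22.1 and 22.4 CPM contralaterally. Pdia4 and Hspa5 differed by -0.11 ± 0.0587 and -0.07 ± 0.0528. For each of these 5 genes the genotypes overlapped on the injured side. A p above the threshold does not show that the genotypes were alike.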

How the data were processed

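RNA was measured by stranded mRNA libraries of lumbar DRG from 10 mice, 20 libraries in 4 groups of 5. The deposited count table, as the authors left it, holds whole-number counts per gene without normalization, with 1 column per library and 0 columns of other samples. The FPKM table deposited by the authors equalled CPM divided by 1 length per gene, close to the whole gene span (within 5% for 93.0% of 18805 matched genes), and served only as an alternative unit. HISAT2, Picard and the builds mm10 and mm39 are named per the submitters' processing notes, without role or order; the counting program and its strand setting are not given in the sources used here, so no coordinates were taken from the files.

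Symbols came from GENCODE by Ensembl identifier: 51487 of 78258 identifiers had one, with 98.12% of the counts. For Ddit3, which had 2 identifiers, the one with more counts was used. Members and lists were chosen with earlier results of these data known. Counts were fitted in R 4.3.3 with edgeR 4.0.16 (TMM, robust quasi-likelihood, 1 mean per group, filterByExpr with a minimum count of 10 and minimum total of 15, which left 28564 genes), in 5 comparisons: injury in each genotype, genotype on each side, and the interaction. P-values were adjusted by Benjamini-Hochberg over all tested genes, with calls under 0.05. The code was tested on simulated data. Values per library are TMM-normalised CPM, and lists are described by counts and medians, without a list test.

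The 2 libraries of a mouse come from 1 animal, by the mouse number in the labels. A sample title gives a shortened number, H6, and its library name, H61, was used, so the pairing of H61 rests on that name. Their deviations from the group means correlated with a median of 0.186 over the 10 mice (-0.055 to 0.361, 7 mice over 0.1). The main design had no block, and the mouse as a replicate block was an alternative, along with DESeq2 1.42.0, RLE scaling, dropping the filter or requiring a mean CPM of 1, a term for the 2 ranges of mouse numbers, a fit of only the 2 groups compared, limma 3.58.1 on log2(FPKM + 1) or log2(FPKM + 0.1), and leaving out each mouse.

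Values in every library were given for Atf4, Ddit3, Trib3, Asns, Chac1, Xbp1, Hspa5, Atf6 and Eif2ak3. The same was done for the 4 highest and 4 lowest called members at a mean of at least 1 CPM in each injury comparison, and for the 5 smallest p in each comparison between genotypes; other lists are given by counts with their highest and lowest gene. Ahr, Cebpb, Cebpg, Ddit4, Phgdh, Slc7a11 and Hsp90b1 were given more fully than this rule asks after their values were seen. Promoter windows were searched for exact motif matches on both strands.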

Additional observations from a re-analysis of the deposited data

Results flagged for a closer look

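In each group of 5 libraries, the highest or lowest value of each member was set against the others by Dixon's ratio, the gap to its neighbour divided by the range, with a critical value of 0.71. Of 168 groups of 5, 16 had such a value, where chance gives about 1 in 20, or 8.4.

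Mouse H64 gave 8 of the 16. In its cKO ipsilateral library, the deepest of the series, it was highest for Ppp1r15a (99.8 CPM against 74.5 to 80.2, ratio 0.776), Mthfd2 (60.9 against 51.2 to 53.0, ratio 0.807) and Slc7a3 (14.5 against 9.26 to 10.2, ratio 0.817). It was also highest there for Vldlr (49.5 against 40.5 to 42.4 CPM, ratio 0.786) and Atf6 (98.9 against 84.9 to 87.2 CPM, ratio 0.832), and lowest for Ddit4 (37.3 against 62.3 to 68.7 CPM, ratio 0.796). In its cKO contralateral library, the shallowest of the series, it was lowest for Hspa5 (248 against 275 to 283 CPM, ratio 0.758) and Hsp90b1 (202 against 219 to 225 CPM, ratio 0.741). The part of depth in these values was not tested.

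In control contralateral libraries, H62 was highest for Nupr1 (13.1 against 4.94 to 6.27 CPM, ratio 0.836) and lowest for Psat1 (57.1 against 60.6 to 61.4 CPM, ratio 0.820). There, H65 was lowest for Trib3 (3.03 against 3.73 to 3.99 CPM, ratio 0.730) and H97 for Psph (22.3 against 24.0 to 24.4 CPM, ratio 0.822). In control ipsilateral libraries, H96 was highest for Shmt2 (35.0 against 29.3 to 30.8 CPM, ratio 0.731) and H65 lowest for Atf6 (81.3 against 87.8 to 89.5 CPM, ratio 0.787). Among cKO ipsilateral libraries, H99 was highest for Eif2ak1 (95.9 against 88.1 to 88.6 CPM, ratio 0.935) and H61 lowest for Herpud1 (63.8 against 67.1 to 67.6 CPM, ratio 0.866).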

How the results depend on the processing

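Of the 32 members called for injury in control mice, 30 were called under every alternative in which they were tested, all but Eif2ak4 and Pdia4 (a mean CPM of 1 leaves Stc2 untested); of the 28 called in cKO mice, 27 were, all but Eif2ak4. No called member changed sign. In the main fit the median log2 fold changes of the ATF4 and ER arms were 0.41 and 0.27 in control mice, and 0.42 and 0.25 in cKO mice. They were smaller by limma on log2(FPKM + 1), at 0.23 and 0.13 in control and 0.26 and 0.10 in cKO mice. By limma on log2(FPKM + 0.1) they were 0.28 and 0.20 in control and 0.32 and 0.18 in cKO mice. The replicate block, which pairs the 2 libraries of a mouse, brought 1 ATF4-arm member, Ddit4, to a lower call in control and 1 in cKO mice, where 0 were called without it; leaving out 1 mouse gave 0 to 1 in each, the 1 being without H64. It also called 9 ER-arm members higher in each genotype and ended the control call of Eif2ak4. Injury calls over all tested genes were not counted with that block. Other member calls it changed are given beside their genes. Calr in cKO mice also passed with DESeq2, RLE size factors, either filter alternative, only the libraries compared, or without H62 or H97. Herpud1 in cKO mice passed with only the libraries compared, and in both genotypes without H62. Pdia4 in control mice was lost in both FPKM fits (adjusted p 0.0846 and 0.0835).

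Members called between genotypes contralaterally were 0 to 4 over the fits that left out 1 mouse, 4 being without H99; no member was called ipsilaterally or in the interaction under any alternative. Over all genes, contralateral calls were 21, with 1041 by DESeq2 and 2 to 50 under the other settings that kept every mouse, and 4 to 3326 without 1 mouse; the cause was not tested. The genotype comparisons could not be fitted with the replicate block, since genotype is nested in mouse, nor the interaction with only the libraries compared. In the interaction, edgeR called 43 genes without H99. Stc2 was below 1 CPM in every library.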

Other observations

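The machinery on which the kinases act was measured as well. Of 10 genes of the eIF2 and eIF2B complexes and of eIF2 alpha phosphatase control, 3 rose and 1 fell in control mice, and 4 rose and 1 fell in cKO mice (median log2 fold change 0.05 in each). Over all tested genes, 13.8% rose and 16.0% fell in control mice (median -0.00), and 16.2% rose and 15.1% fell in cKO mice (median -0.03). Ppp1r15b, the constitutive counterpart of the phosphatase subunit Ppp1r15a, went from 68.7 to 81.8 CPM in control mice (log2 0.25 ± 0.0362, SE; edgeR adjusted p 1.444e-05), beside 1.07 for Ppp1r15a. Eif2s2, the eIF2 beta subunit, also had 0.25 in control mice, and Eif2b4, a subunit of the exchange factor that phosphorylated eIF2 inhibits, shared the highest value of cKO mice with Ppp1r15b (0.26). Lowest in both genotypes was Eif2a, an initiation factor that is not a subunit of eIF2 despite its name (-0.16 and -0.12, both called).

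Mitochondrial chaperones and proteases, the targets of the mitochondrial unfolded protein response, were called higher in 3 of 12 cases and lower in 1 in each genotype (median -0.01 in both). Clpx, the unfoldase subunit of a matrix protease, was highest (0.28 ± 0.0403 in control and 0.35 ± 0.0403 in cKO mice). The lowest were Trap1 in control mice (-0.09, called) and Hspe1, the matrix cochaperonin, in cKO mice (-0.16, called). These values stand beside the log2 rises of 0.65 and 0.69 for the mitochondrial enzyme Mthfd2.

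For the 13 ATF4-linked synthetases, log2 differences of cKO against control were negative for 13 of 13 contralaterally (median -0.07) and positive for 10 of 13 ipsilaterally (median 0.01), with 0 called on either side. The interaction was positive for 13 of 13 (median 0.09), with 0 called, and it shares the contralateral libraries with the first of these comparisons. At an unadjusted edgeR p under 0.05, 6 of 13 passed contralaterally and 1 of 13 in the interaction, beside 5006 and 2799 of all 28564 tested genes. The 13 genes were measured in the same libraries, so their signs are not separate observations. The 7 other synthetases were also negative in 7 of 7 cases contralaterally (median -0.05) and positive in 6 of 7 in the interaction (0.07), and the 4 kinases were negative in 4 of 4 (-0.05) and positive in 4 of 4 (0.06), with 0 called. Over all 28564 tested genes, 13081 were positive contralaterally (median -0.01) and 15108 in the interaction (0.01). In the same libraries, fibroblast markers were positive for 7 of 7 contralaterally (median 0.85) and 0 of 7 in the interaction (-0.98), with 0 called. At an unadjusted edgeR p under 0.05, 6 of 7 and 4 of 7 of them passed. Sensory neuron markers were positive for 2 of 10 (-0.03) and 5 of 10 (-0.01), with 0 called, and 2 of 10 passed unadjusted in each. Also positive in the interaction were 0 of 8 neutrophil (-0.70), 0 of 5 erythroid (-0.44), 0 of 10 macrophage (-0.34) and 0 of 7 endothelial markers (-0.33). For satellite glia it was 1 of 6 (-0.12), for Schwann cells 1 of 8 (-0.09), for lymphocytes 4 of 8 (-0.01) and for plasma cells 5 of 7 (0.10), with 0 called. The part of these cell types in the synthetase and kinase values was not tested.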
